A study of Mus musculus with 12 samples.

Results

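The histone genes of mouse bone marrow-derived macrophages were examined with and without knockdown of the acetyltransferase MOF, which the gene Kat8 encodes. Members were the rows of the authors' deposited table whose gene name begins with Hist1h to Hist4h, H2af, H1f or H3f, with 2 pseudogene names left out, which gave 37 of 14264 genes. They comprised 25 genes of the Hist clusters, 10 variant histone genes, 1 annotated pseudogene (H3f3c) and 1 antisense RNA (H3f3aos) that lies opposite the start of H3f3a and encodes no histone. RNA was sequenced from 12 libraries in 4 groups of 3. The macrophages, all described as isolated ex vivo from marrow, carried either a control hairpin, which the labels call WT (shRNA control), or the shMOF hairpin. Both hairpins were studied in unstimulated cells and after stimulation for 3 h with lipopolysaccharide (LPS), a bacterial product, at 100 ng/ml. The sources used here name neither the vector nor a further hairpin nor the age or number of the mice. What the shMOF hairpin may do besides lowering MOF thus cannot be told apart from the lowering of MOF itself.

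Each nucleosome wraps DNA around a core of the histones H2A, H2B, H3 and H4, and the linker histone H1 sits where the DNA enters and leaves. Most core histone genes lie in clusters, are switched on in S phase when new DNA must be packed, and give mRNAs that end in a short stem-loop, bound by the protein SLBP, in place of a poly(A) tail. Variant histones such as H2A.Z, macroH2A and the replacement H3 lie outside the clusters, are made through the whole cell cycle and have polyadenylated mRNAs, and the gene of H2A.X can give mRNAs of both kinds. Some cluster genes also make polyadenylated mRNAs, above all in cells that have left the cycle. MOF itself acts on the tail of histone H4. Libraries were made with a stranded kit for mRNA, a kind that captures poly(A) tails, so a histone mRNA ending at the stem-loop would be caught poorly, and the values below are not totals of all histone mRNA.

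In the GENCODE M21 annotation (GRCm38, which is mm10) the stem-loop is visible in most cluster genes. The pattern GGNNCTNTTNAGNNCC, searched on the transcript's own strand after the stop codon, was found in 22 of the 37 members, of which 21 were cluster genes and 1 was H2afx, the gene of the DNA damage variant H2A.X. Anywhere in a transcript the same pattern occurs in 157 of 21951 protein-coding genes (0.715%), 45 of them named by the same name rule. The 22 stem-loops took 5 forms, the commonest in 14 members. They began 24 to 58 bases after the stop codon. Examples follow, written as DNA with the stem-loop in capitals, chosen because these genes carry the changes described below or show the rarer loops.

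Hist1h1c, chr13:23739507-23739532, plus strand: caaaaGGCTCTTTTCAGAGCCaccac
Hist3h2a, chr11:58955167-58955192, plus strand: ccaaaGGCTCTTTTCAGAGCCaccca
Hist1h2ac, chr13:23683472-23683497, minus strand: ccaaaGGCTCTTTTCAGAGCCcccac
Hist2h3c2, chr3:96238480-96238505, minus strand: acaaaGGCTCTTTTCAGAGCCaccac
Hist1h4i, chr13:22040961-22040986, minus strand: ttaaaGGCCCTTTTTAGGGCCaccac
Hist1h4m, chr13:21812124-21812147, plus strand: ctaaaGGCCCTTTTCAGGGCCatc
H2afx, chr9:44335235-44335260, plus strand: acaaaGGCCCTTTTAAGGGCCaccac
Hist1h3e, chr13:23561898-23561923, minus strand: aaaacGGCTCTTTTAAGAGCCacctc

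All of the cluster H1, H2A and H2B genes with a stem-loop, and the H3 genes Hist1h3d and Hist2h3c2, share the form of Hist1h1c. Every H4 gene with a stem-loop has a stem of the GGCCC kind, as has H2afx. The annotated transcripts differ more in what follows. In 7 cluster genes the transcript ends within 46 bases after the stem-loop, and in 14 it runs on for 151 to 4884 bases, which for 7 of these 14 brings it to a poly(A) signal (AATAAA or ATTAAA) within 40 bases of the annotated end. Hist1h1c runs on for 840 bases, Hist1h4i for 330, Hist3h2a for 1643 and H2afx for 822, and each of these 4 transcripts ends beside a poly(A) signal. The other 4 cluster genes showed no match in the transcript searched. That transcript stops at the stop codon in Hist1h2bn and Hist1h4k, is spliced in Hist1h2bc and is a long single exon in Hist2h2be. Whether splicing accounts for the missing match in Hist1h2bc was not tested.

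Cluster genes sit in 3 places. Of the 25 members, 19 lie in the large cluster on chromosome 13, 4 on chromosome 3 and 2 on chromosome 11. GENCODE M21 names 50 further genes by the same pattern, some of them outside the clusters, and these were not analysed here. The clusters on chromosomes 13 and 3 are thus covered only in part. Several members are head-to-head pairs that share 1 stretch of promoter: Hist1h2ac and Hist1h2bc start 250 bases apart, Hist1h2ae and Hist1h2bg 175, and Hist1h2bf and Hist1h2ad 184. RefSeq promoters (GRCm38.p6) were matched for 32 of the 37 members, and the 250 bases before the start were searched on both strands for 5 motifs. CCAAT was present in 21 of 32 members and in 37.5% of all 27025 genes, and in 6 of 6 matched H2B cluster genes against 1 of 6 H4 cluster genes. TATAAA was present in 14 of 32 (14.3% of all genes), 13 of these being cluster genes and 1 H3f3b. The octamer ATTTGCAT, an element of H2B promoters, was present in 6 of 32 (1.81% of all genes), of which 2 were among the 6 matched H2B cluster genes and the others were Hist1h2ac, Hist1h2ae, Hist3h2a and H3f3b. The motif AAACACA, an element of H1 promoters, was present in 3 (7.20% of all genes), among them both H1 cluster genes. TTTGGCGC, an E2F site, was present in 0 of 32 (0.485% of all genes). The upstream stretches of a linker gene and an H2A and H2B pair that are described below as higher or positive, and of H2afz, which was lower, are shown with these motifs in capitals, read on either strand. The second runs from the Hist1h2ac start back to just past the start of Hist1h2bc.

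Hist1h1c, chr13:23738557-23738806, plus strand: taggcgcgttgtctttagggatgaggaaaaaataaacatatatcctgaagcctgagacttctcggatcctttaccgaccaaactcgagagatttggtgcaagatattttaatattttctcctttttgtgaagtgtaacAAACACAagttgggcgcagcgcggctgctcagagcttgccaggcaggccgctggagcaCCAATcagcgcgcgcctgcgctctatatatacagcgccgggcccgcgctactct
Hist1h2ac, chr13:23683960-23684209, minus strand: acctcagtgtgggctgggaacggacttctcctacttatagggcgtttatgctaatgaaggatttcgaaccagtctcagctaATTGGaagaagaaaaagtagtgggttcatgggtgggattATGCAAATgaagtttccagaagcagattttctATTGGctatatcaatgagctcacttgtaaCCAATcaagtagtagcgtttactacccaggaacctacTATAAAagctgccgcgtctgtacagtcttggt
H2afz, chr3:137864237-137864486, plus strand: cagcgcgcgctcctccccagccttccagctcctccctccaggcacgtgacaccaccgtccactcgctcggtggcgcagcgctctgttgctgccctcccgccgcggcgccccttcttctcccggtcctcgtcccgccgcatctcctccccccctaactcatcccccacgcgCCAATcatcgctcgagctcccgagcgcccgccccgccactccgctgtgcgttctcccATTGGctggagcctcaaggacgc

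The Hist1h2ac and Hist1h2bc stretch holds CCAAT on both strands, the octamer and TATAAA, that of Hist1h1c holds AAACACA and CCAAT, and that of H2afz only CCAAT, once on each strand.

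Variant genes made up most of the histone signal. Levels are given as the mean normalized count per the authors' deposited table, a mean over libraries that does not separate the groups, and to compare genes it was divided by the length of annotated exon. H3f3b stood highest at 5449 per kb, followed by the cluster gene Hist1h2bc at 2406, H3f3a at 2227, H2afz at 1454 and the linker gene Hist1h1c at 1192. Next came H2afy, which encodes macroH2A, at 549.2 per kb, the linker variant H1f0 at 451.9, and Hist1h4i at 400.0. Further down were H2afj at 323.9, H2afx at 320.2 and H2afv, the second H2A.Z gene, at 243.1. Spread over libraries is not given for these means, so neighbours in this order cannot be separated. Of the summed mean normalized count of all members, 84.7% came from the 10 variant genes and 15.2% from the 25 cluster genes. Summed per kb of exon, the shares were 69.0% and 30.7%. Before that scaling, Hist1h2bc and Hist1h1c together gave 78.7% of the cluster share. Other cluster genes were low: 8 had a mean normalized count under 10 and another 8 between 10 and 50.

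**Figure D1:**
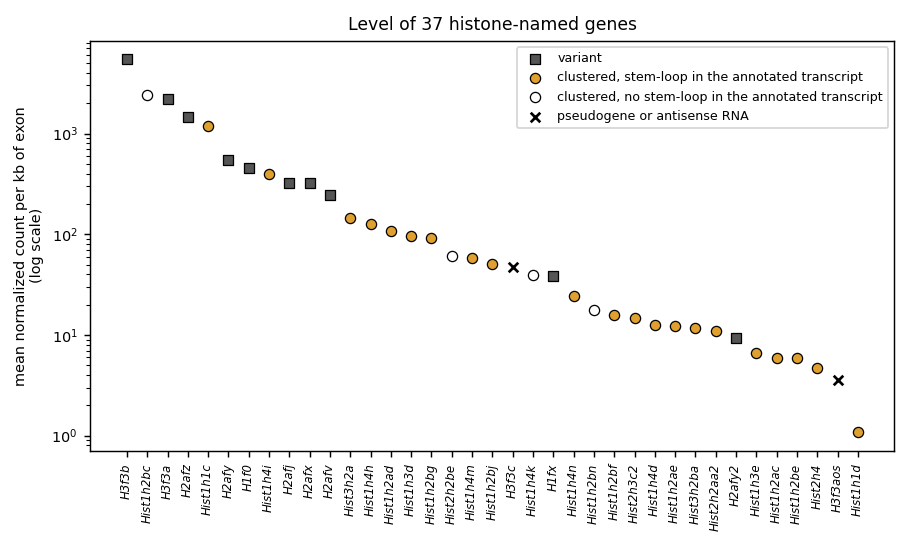
Level of each of the 37 members as mean normalized count per kb of annotated exon (log scale), ranked from left to right; squares are variants, filled circles cluster genes with a stem-loop, open circles cluster genes without, crosses the pseudogene and the antisense RNA. The highest cluster genes, Hist1h2bc (2406) and Hist1h1c (1192), lie among the variants, and most cluster genes lie below them.

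Levels are next set beside the annotated extension past the stem-loop. The 14 cluster genes that run on past the stem-loop had a median mean normalized count of 14.9 (5.48 to 1860) and the 7 that end close to it had 23.4 (5.76 to 62.1). Per kb of exon the medians were 12.4 and 51.1. The exon length includes the bases past the stem-loop, by which these genes were split. A longer annotated extension thus lowers the value per kb by construction. The medians per kb therefore cannot show whether the genes that run on differ in level from those that end close to the stem-loop. Many cluster genes have near-identical copies. Of the windows of 100 bases, the read length, in the annotated transcript, a median of 30.7% also occurred in transcripts of other genes for cluster genes and 4.36% for variants, on either strand and with overlapping genes counted. The median was 12.7% for the 14 cluster genes that run on and 63.6% for the 7 that end close to the stem-loop. The share was 88.1% for Hist1h4m, 80.7% for Hist1h4n, 100% for Hist2h2aa2, 64.3% for Hist1h4k and 61.6% for Hist2h3c2, and how such reads were counted is not stated, so these genes are uncertain. Among the genes that carry the results it was 5.07% for Hist1h1c, 25.4% for Hist1h2bc, 15.1% for Hist1h4i, 29.8% for Hist3h2a, most often with the overlapping gene Trim17, and 58.8% for H2afz, which shares windows with 4 other genes, most often Tmcc1.

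The authors fitted 2 comparisons, shMOF against shCTRL in each state, whose log2 fold changes, standard errors (SE) and adjusted p (two-sided DESeq2 Wald test, Benjamini-Hochberg over all genes) are used here with a threshold of 0.05. No values per library were used, depth per library is unknown, and the p-values measure the spread between samples that the labels number without naming animals or cultures. Kat8 fell by 2.25 on the log2 scale (SE 0.10) unstimulated and by 2.31 (SE 0.13) after LPS per the authors' deposited table. All 10 macrophage markers were present, with mean normalized counts of 1233 to 259735, while 2 of 8 neutrophil markers (S100a8 and Camp) and 1 of 8 lymphocyte markers (Cd4) were in the tables. Of 7 fibroblast and endothelial markers 6 were present, with Col1a1 highest at a mean normalized count of 559.5, and 2 rose unstimulated and 3 at LPS 3 h. Of 6 erythroid and megakaryocyte markers 2 were present, and of these Pf4 rose in both states, by 0.79 (SE 0.09) and 0.71 (SE 0.08) per the authors' deposited table. Of the macrophage markers 9 of 10 rose unstimulated and 7 rose and 1 fell at LPS 3 h, and of 5 progenitor markers 3 fell unstimulated and 2 at LPS 3 h. The part of these marker changes in the histone results was not tested. In bulk RNA, fewer cells of a kind and less RNA per cell cannot be told apart.

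In unstimulated macrophages the knockdown moved histone genes both ways. Of the 37 members 8 rose and 5 fell, against 39.1% of all genes called (21.3% higher and 17.8% lower), so the share of members called, 35.1%, is near the background. Among the 10 variants 2 rose and 4 fell, or 60.0% called, with a median log2 fold change of -0.21. Among the 25 cluster genes 5 rose and 1 fell, with a median of 0.27, beside 0.03 for all genes tested. By adjusted p, the first 2 falls were those of the DNA damage variant H2afx and the H2A.Z gene H2afz, and the first 2 rises those of the cluster genes Hist1h1c and Hist1h2bc. Among the 17 members with a mean normalized count of 50 or more, 5 rose and 3 fell, or 47.1%. Of all genes with a mean of at least 10, 42.6% were called, and the share at 50 or more was not computed.

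The variant genes H2afx and H2afz had the smallest p of all members. H2afx fell to 0.522-fold of control, a log2 fold change of -0.94 (SE 0.07, DESeq2 adjusted p = 4.68e-36) per the authors' deposited table. H2A.X is the histone that is phosphorylated around DNA breaks. H2afz, which encodes the main H2A.Z found at promoters, fell to 0.648-fold, a log2 fold change of -0.63 (SE 0.07, DESeq2 adjusted p = 1.53e-19) per the authors' deposited table. Its paralogue H2afv, which encodes a near-identical H2A.Z, had -0.08 (SE 0.07, DESeq2 adjusted p = 0.395) per the authors' deposited table. The 95% interval was -0.21 to 0.06 for H2afv and -0.76 to -0.50 for H2afz. Both come from the same libraries, and the difference between the genes was not tested. Of the 100-base windows, 58.8% are shared with other genes for H2afz and 0% for H2afv. H2afj, a variant known from senescent human fibroblasts, rose by 0.41 (SE 0.08, DESeq2 adjusted p = 8.38e-06) per the authors' deposited table. The macroH2A gene H2afy, by contrast, had -0.03 (SE 0.04, DESeq2 adjusted p = 0.630) per the authors' deposited table, with a 95% interval of -0.10 to 0.05. The second macroH2A gene, H2afy2, had -0.27 (SE 0.27, DESeq2 adjusted p = 0.472) at a mean normalized count of 20.4 per the authors' deposited table.

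The replacement H3 genes, H3f3a and H3f3b, encode the same protein and went opposite ways by small amounts. H3f3b fell by 0.28 on the log2 scale (SE 0.05, DESeq2 adjusted p = 4.53e-07) and H3f3a rose by 0.17 (SE 0.05, DESeq2 adjusted p = 0.00462) per the authors' deposited table. H3f3aos, opposite H3f3a, rose by 1.17 (SE 0.38, DESeq2 adjusted p = 0.00676) at a mean normalized count of 10.9 per the authors' deposited table. The kit marks strand, but the sources used here do not say whether counting used it, so reads of H3f3a and H3f3aos cannot be told apart with certainty. Of the H3f3a transcript, 26.3% of the 100-base windows also occur elsewhere, and H3f3c, the pseudogene, had -0.07 (SE 0.34) per the authors' deposited table.

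Of the linker histone genes, 1 of 2 in the clusters rose and 1 of 2 variants fell. Hist1h1c, the most abundant H1 gene here per kb, rose by 0.71 (SE 0.09, DESeq2 adjusted p = 2.05e-13) per the authors' deposited table, or 1.64-fold. H1fx fell by 1.20 on the log2 scale (SE 0.29, DESeq2 adjusted p = 2.22e-04) per the authors' deposited table, at a mean normalized count of 46.5. It overlaps Gm5577 on the opposite strand and Gm47286 on the same strand. H1f0, the linker variant of cells that have stopped dividing, had -0.15 (SE 0.07, DESeq2 adjusted p = 0.0925) per the authors' deposited table, and Hist1h1d, near the floor with a mean normalized count of 8.05, had -0.08 (SE 0.46).

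Among the core genes of the clusters, Hist1h2bc carried the clearest change. It rose by 0.53 (SE 0.08, DESeq2 adjusted p = 1.87e-11), or 1.45-fold, per the authors' deposited table. Its head-to-head partner Hist1h2ac, at a mean normalized count of 14.8, had a positive value of 0.39 (SE 0.40) that did not pass per the authors' deposited table. Hist3h2a, the single H2A gene of the chromosome 11 cluster among the members, rose by 0.27 (SE 0.10, DESeq2 adjusted p = 0.0177) per the authors' deposited table. The other 3 calls were on mean normalized counts of 12.2 to 23.4 in genes that share much of their sequence: Hist2h3c2 rose by 0.97 (SE 0.34), Hist1h4k rose by 0.93 (SE 0.33) and Hist1h4m fell by 0.91 (SE 0.31) per the authors' deposited table. The remaining 18 core cluster genes did not pass, lying between -0.61 and 1.24 with SE of 0.11 to 0.81 per the authors' deposited table. Hist1h2ae stood at the top of that range, with 1.24 (SE 0.56, DESeq2 adjusted p = 0.0624) on few counts per the authors' deposited table. The intervals of the lowest genes were wide, reaching from -1.26 to 1.90 for the H3 gene Hist1h3e.

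**Figure D2:**
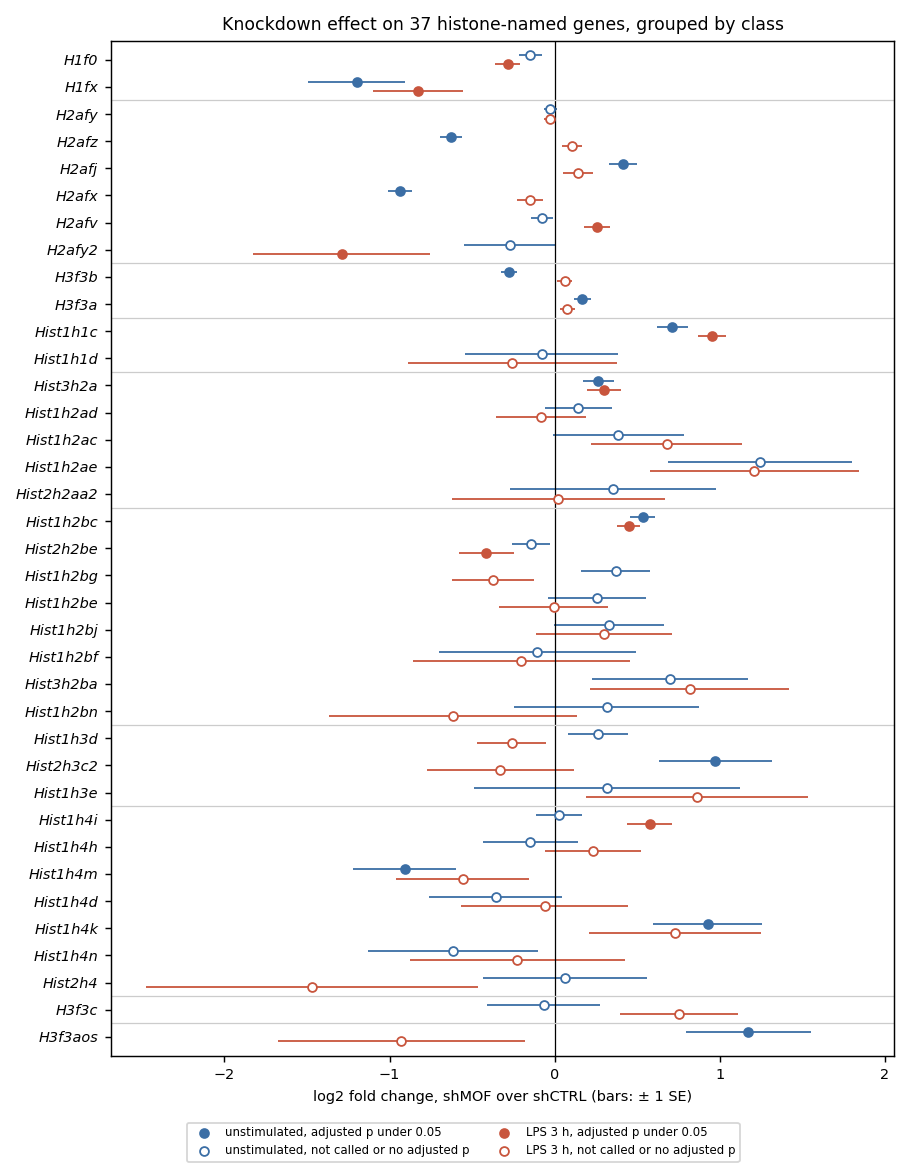
Log2 fold change of shMOF over shCTRL for the 37 members in unstimulated cells (blue) and at LPS 3 h (red), with bars of 1 SE, ordered by class and by level; filled points passed an adjusted p of 0.05. Blue points of H2afx (-0.94), H2afz (-0.63) and H1fx (-1.20) lie left of 0, and both points of Hist1h1c (0.71 and 0.95) and Hist1h2bc (0.53 and 0.45) lie right of it.

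After 3 h of LPS, 4 of 24 cluster genes with an adjusted p rose and 1 fell, or 20.8% called. H2afx and H2afz, which fell in unstimulated cells, did not pass the threshold. Of 36 members with an adjusted p, 5 rose and 4 fell, or 25.0%, against 48.0% of all genes called (28.1% higher and 20.0% lower). The median log2 fold change was -0.01 for the 25 cluster genes and 0.01 for the 10 variants, beside 0.03 for all genes. Hist1h1c, Hist1h2bc and Hist3h2a rose in both states, H1fx fell in both, and no member was called in opposite directions.

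Hist1h1c had the smallest p of the members that rose. It rose by 0.95 (SE 0.08, DESeq2 adjusted p = 6.90e-28), or 1.94-fold, per the authors' deposited table. Hist1h2bc rose by 0.45 (SE 0.07, DESeq2 adjusted p = 6.35e-10) per the authors' deposited table. Hist1h4i, the most abundant H4 gene among the members, rose by 0.58 (SE 0.14, DESeq2 adjusted p = 1.07e-04) per the authors' deposited table, having stood at 0.03 (SE 0.14) in unstimulated cells. Hist3h2a rose by 0.30 (SE 0.10, DESeq2 adjusted p = 0.00877) and H2afv by 0.26 (SE 0.08, DESeq2 adjusted p = 0.00262) per the authors' deposited table. The H2B gene Hist2h2be went the other way from Hist1h2bc, falling by 0.41 on the log2 scale (SE 0.17, DESeq2 adjusted p = 0.0276) per the authors' deposited table.

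Both linker variants fell at LPS 3 h. H1fx fell by 0.83 (SE 0.27, DESeq2 adjusted p = 0.00643) and H1f0 fell by 0.28 (SE 0.08, DESeq2 adjusted p = 6.16e-04) on the log2 scale per the authors' deposited table. H2afy2 fell by 1.29 (SE 0.53, DESeq2 adjusted p = 0.0341) per the authors' deposited table, on a low count and with Aifm2 overlapping on the opposite strand, while the main macroH2A gene H2afy had -0.03 (SE 0.03). H2afx had -0.15 (SE 0.08, DESeq2 adjusted p = 0.112) and H2afz 0.11 (SE 0.06, DESeq2 adjusted p = 0.138) per the authors' deposited table. For H3f3b the value was 0.06 (SE 0.05) and for H3f3a 0.08 (SE 0.05) per the authors' deposited table, neither past the threshold, nor was H2afj at 0.14 (SE 0.09). No clustered gene with a mean normalized count under 50 passed at LPS 3 h. Their median SE was 0.65 at a mean under 10 and 0.45 at 10 to 50, so only large changes could pass. The share of all genes called at such counts was not computed.

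Whether the knockdown effect itself differed between the states was tested for the 29 members whose mean normalized count reached 10. The gap between both log2 fold changes was divided by its SE, combined from both fits as if independent, and p was adjusted over 12994 genes. It passed for 6 members, 5 higher and 1 lower at LPS 3 h than unstimulated, or 20.7% against 30.6% of all genes tested (18.2% higher and 12.4% lower). The 2 comparisons share no libraries. All 4 variant genes that passed had a higher log2 fold change at LPS 3 h. For H2afx, H2afz and H3f3b this was a fall in unstimulated cells that did not pass at LPS 3 h. A higher value at LPS 3 h was not particular to the variants, as gene lists described below show. Of 29 S phase and replication genes 19 passed as higher and 1 as lower, and of 20 mitotic genes 17 and 0. Of 30 histone chaperones 11 passed as higher and 1 as lower, and of 20 histone mRNA processing genes 5 and 4. H2afx differed by 0.79 (SE 0.11, adjusted p = 8.71e-12) and H2afz by 0.73 (SE 0.09, adjusted p = 2.24e-14). H3f3b differed by 0.34 (SE 0.07) and H2afv by 0.34 (SE 0.10). The log2 fold change was thus higher after LPS in both H2A.Z genes, from -0.63 to 0.11 in H2afz and from -0.08 to 0.26 in H2afv. The cluster gene Hist1h4i differed by 0.55 (SE 0.19, adjusted p = 0.0193 by the same normal test). H3f3aos differed by -2.10 (SE 0.84, adjusted p = 0.0424 by the same normal test) on its low count. For the genes that rose in both states the difference did not pass: it was 0.24 for Hist1h1c, with a 95% interval of -0.004 to 0.49, -0.08 for Hist1h2bc (-0.28 to 0.12) and 0.03 for Hist3h2a (-0.24 to 0.31).

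**Figure D3:**
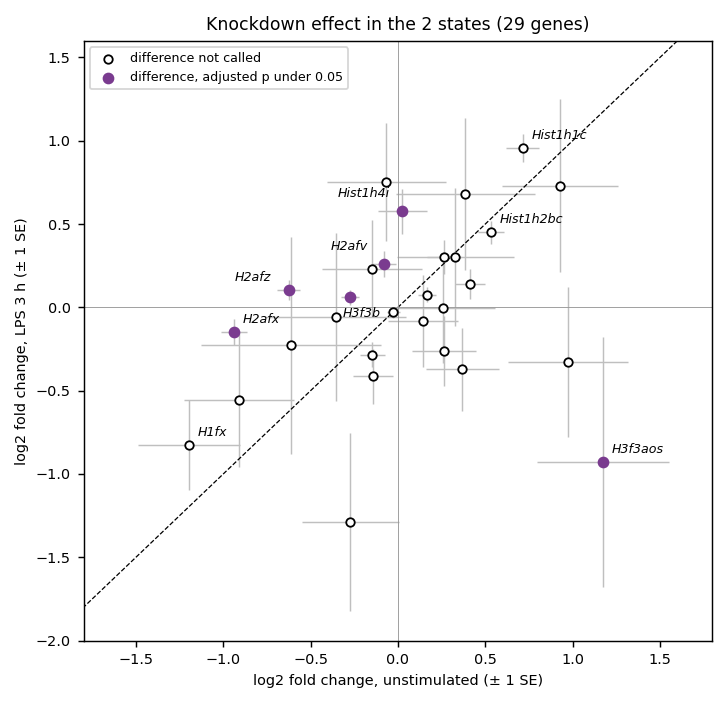
Knockdown effect in unstimulated cells (x axis) against LPS 3 h (y axis) for the 29 members tested for a difference, as log2 fold changes with bars of 1 SE; the dashed line marks equal effects and purple points passed the test of the difference. H2afx and H2afz lie well above the line, and Hist1h1c and Hist1h2bc lie near it in the upper right.

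Genes that make, carry and process histones were set beside the members. Of 29 genes of S phase and DNA replication, 29 fell and 0 rose in unstimulated cells, with a median log2 fold change of -1.06, and 24 fell and 1 rose at LPS 3 h, with a median of -0.67. Of 20 mitotic genes 20 fell unstimulated (median -2.22), and 19 fell and 1 rose at LPS 3 h (median -1.45). Over all genes tested 17.8% fell unstimulated and 20.0% at LPS 3 h. These lists were chosen with earlier results of these data known. The 25 cluster genes, whose mRNAs are tied to S phase in dividing cells, had a median of 0.27 and 1 fall in the same unstimulated cells. Their median SE was 0.33 and their median mean normalized count 14.9, beside 455 for the S phase list. Histone mRNAs ending at the stem-loop would be caught poorly, so these values cannot show whether S phase histone mRNA fell. The centromeric H3 variant gene Cenpa, outside the name rule, fell by 0.70 on the log2 scale (SE 0.13, DESeq2 adjusted p = 4.47e-07) per the authors' deposited table and had -0.23 (SE 0.13) at LPS 3 h.

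Of 20 genes for the transcription and 3' processing of histone mRNA, 3 rose and 6 fell unstimulated, and 3 rose and 6 fell at LPS 3 h. The share called was 45% in each state, near the 39.1% and 48.0% of all genes. The list had a median mean normalized count of 1096, beside 446 over all genes. Slbp, which encodes the stem-loop binding protein, fell by 1.41 on the log2 scale (SE 0.08, DESeq2 adjusted p = 2.06e-71) unstimulated and by 0.80 (SE 0.09, DESeq2 adjusted p = 2.08e-19) at LPS 3 h per the authors' deposited table. Eri1, an exonuclease that trims the histone mRNA end, had -0.54 (SE 0.06) and -0.05 (SE 0.05) per the authors' deposited table. Cstf2, a cleavage stimulation factor, fell by 0.27 on the log2 scale (SE 0.07) and rose by 0.55 (SE 0.06) at LPS 3 h per the authors' deposited table. Cdk9, the elongation kinase, rose by 0.37 (SE 0.05) and 0.16 (SE 0.04) per the authors' deposited table.

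Histone chaperones fell in 14 of 30 cases and rose in 4 unstimulated, with a median of -0.11, and fell in 9 and rose in 8 at LPS 3 h. The share called was 60% and then 56.7%, beside 39.1% and 48.0% of all genes. Of all genes with a mean of at least 10 it was 42.6% and 51.1%. The chaperone genes had a median mean normalized count of 1627, beside 446 over all genes, so these shares compare genes at unlike levels. Asf1b, which hands H3 and H4 to the replication fork, fell by 1.63 (SE 0.12) and 0.86 (SE 0.13) on the log2 scale per the authors' deposited table. Hjurp, the chaperone of the centromeric H3, fell by 1.14 (SE 0.06) and 0.79 (SE 0.07) on the log2 scale per the authors' deposited table. Anp32e, which removes H2A.Z, fell by 0.89 (SE 0.08) and 0.50 (SE 0.07) on the log2 scale per the authors' deposited table. Dnajc9, another H3 and H4 chaperone, fell by 0.85 (SE 0.09) and 0.69 (SE 0.10) on the log2 scale per the authors' deposited table.

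Of 18 genes around H4 acetylation, Kat8 among them, 6 rose and 6 fell unstimulated, and 9 rose and 4 fell at LPS 3 h. The share called was 66.7% and then 72.2%, beside 39.1% and 48.0% of all genes. This list too stood at a higher level, with a median mean normalized count of 1349 beside 446 over all genes. Hat1, which acetylates newly made H4, fell by 0.49 on the log2 scale (SE 0.08) in unstimulated cells and rose by 0.18 (SE 0.07) after LPS per the authors' deposited table. The deacetylase gene Sirt1 likewise fell by 0.48 (SE 0.07) and rose by 0.49 (SE 0.06) per the authors' deposited table. Kansl3, a subunit of a complex that holds MOF, fell by 0.37 (SE 0.06) and by 0.24 (SE 0.06) on the log2 scale per the authors' deposited table. No list was tested as such, and whether these genes bear on the histone values was not tested. The medians over all genes tested were 0.03 in both states.

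**Figure D4:**
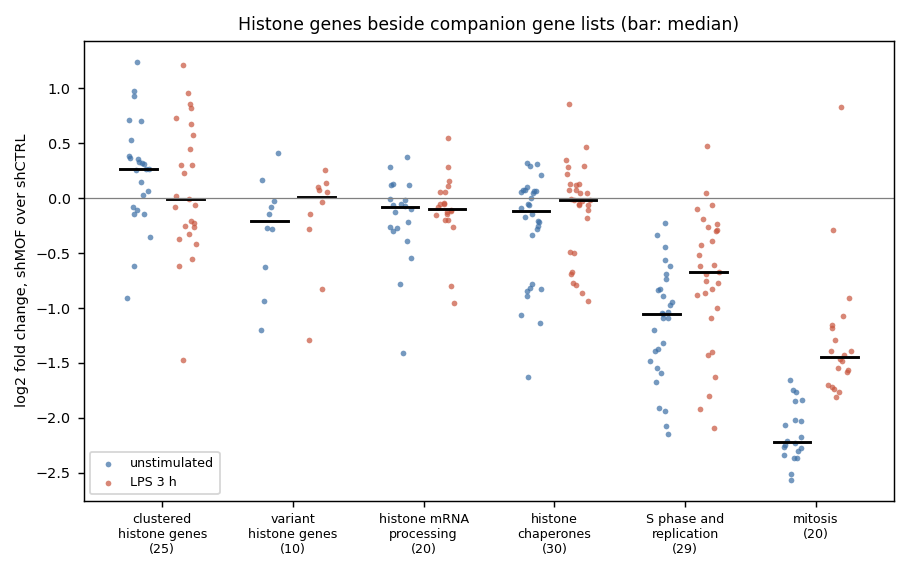
Log2 fold change of shMOF over shCTRL for each gene of 6 groups in unstimulated cells (blue) and at LPS 3 h (red), with the number of genes in brackets and a black bar at the median. S phase and mitotic genes lie below 0 (unstimulated medians -1.06 and -2.22), while cluster histone genes scatter on both sides of it (median 0.27). Histone mRNAs ending at the stem-loop would be caught poorly.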

How the data were processed

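RNA-seq of 12 libraries (4 groups of 3) was read from 2 tables, 1 for each LPS state. Per the submitters' processing notes the authors used DESeq2 (no version named) and mm10. The aligner, counter, annotation release and strand setting are not given in these sources. Per the file headers, the authors deposited for each gene a mean normalized count (a signal, identical in both tables), a log2 fold change, its SE and Wald statistic (scores), a p-value and an adjusted p-value. The deposited adjusted p equalled a Benjamini-Hochberg adjustment to within 1.36e-15. It is blank for 277 genes at LPS 3 h, Hist1h3e among them, and these stayed without one. Smaller counts give larger SE: the median SE was 0.33 over cluster genes and 0.07 over variants unstimulated.

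Computed here (Python 3.11.15, scipy 1.17.1, statsmodels 0.14.6) were the counts of members, the difference between states (minimum mean normalized count 10, errors taken as uncorrelated, tested on simulated data), levels per kb, and matches to GENCODE M21 by Ensembl ID without version (37 of 37) and to RefSeq promoters. All members may be named, the variants always, and up to 4 genes of each companion list by smallest p in either comparison. Members and lists were chosen with earlier results of these data known. Alternatives covered centring, adjustment, threshold, null, minimum counts, error correlation and shared sequence.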

Additional observations from a re-analysis of the deposited data

Results flagged for a closer look

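The knockdown effect differed between LPS 3 h and unstimulated cells, by a test of the difference itself, for 6 of 29 histone-named genes. That is 20.7%, a smaller share than the 30.6% of all 12994 genes tested, so the count is no feature of histone genes as a group. In H2afx the log2 fold change was -0.94 unstimulated and -0.15 at LPS 3 h, a difference of 0.79. In H2afz it was -0.63 and 0.11, a difference of 0.73. In the cluster gene Hist1h4i it was 0.03 and 0.58, a difference of 0.55. In H3f3b it was -0.28 and 0.06, and in H2afv -0.08 and 0.26, a difference of 0.34 in each. In H3f3aos, the antisense RNA at H3f3a, it was 1.17 and -0.93, a difference of -2.10, at a mean normalized count of 10.9.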

How the results depend on the processing

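No paired analysis was possible because the tables hold no values per library; leaving out single libraries could not be done either. Unstimulated, the 8 members that rose became 5 when p was adjusted over genes with a mean of at least 50, at a threshold of 0.01, or over members of that mean, and 2 against a null of at most 0.25; the 5 that fell became 3 under that adjustment, that null, that mean, and for members with under 40% shared windows, a choice made after seeing the data. The 5 cluster genes that rose became 3 under that adjustment, that mean and that sharing limit, and 2 at 0.01 and that null, while the 1 that fell became 0 under all 5 settings. The 2 variants that rose became 0 under that null. At LPS 3 h, the 4 members that fell became 2 under that adjustment, 0.01 and that mean, and 0 under that null; the 5 that rose became 2 under that null. Cluster genes went from 4 higher to 2 under that null, and from 1 lower to 0 under it and at 0.01. Variants went from 3 lower to 1 under that adjustment and that mean, and to 0 under that null, and from 1 higher to 0 under it. Classed by stem-loop, unstimulated members with one were 3 higher and 2 lower, and those without were 5 higher; at LPS 3 h those with one were 0 lower and those without 2 higher. For the difference, the 1 lower became 0 at a minimum mean of 50 or 0.01, and 4 with errors correlated at 0.3 (2 cluster genes, 1 variant); the 1 cluster gene higher became 0 at 0.01. Centring shifted all fold changes by 0.03, which turned Hist1h4i unstimulated to -0.0054 and Hist2h2aa2 at LPS 3 h to -0.0081, brought H1f0 unstimulated past the threshold (adjusted p = 0.0370), and kept every count within 1.5 times. The cause of these changes was not tested. Low counts, with 16 of 25 cluster genes under 50, limit what can be seen.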
